A study of Homo sapiens with 24 samples.

Results

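RSAD2, CMPK2, SAMHD1 and NT5C3A are interferon-stimulated genes whose products make, use up or break down nucleotides. They were taken by symbol from the deposited expression table, which gave 4 of 60609 gene rows, each present once. The cells were A549, a human line derived from a lung adenocarcinoma and grown without antibiotic during transfection. For 48 h they carried a pool of siRNAs against BOP1 (siBOP1), a factor needed to mature the large ribosomal subunit, or a control siRNA (siFLuc) against the luciferase of the firefly, a gene human cells lack. All cells were thus transfected, and none was left without siRNA. The medium was then changed for a mock treatment or for interferon beta (IFN) at 1000 units per mL, and RNA was taken at 8 h or 12 h. The 2 siRNAs, 2 treatments and 2 times gave 8 groups of 3 libraries. The series asks how ribosome biogenesis bears on the response to IFN; these libraries measure RNA and hold no measure of translation.

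The 4 products meet at the pool of nucleotide triphosphates that viruses draw on. Viperin, encoded by RSAD2, is a radical S-adenosylmethionine enzyme that converts CTP to ddhCTP, a nucleotide that ends the RNA chains of some viral polymerases. CMPK2 is a mitochondrial kinase that phosphorylates CMP and UMP and their deoxy forms, and it is proposed to help supply CTP to viperin. Its gene lies beside RSAD2 in vertebrates. SAMHD1 hydrolyses deoxynucleotide triphosphates and limits reverse transcription of retroviruses. NT5C3A is a cytosolic 5′-nucleotidase that removes phosphate from pyrimidine monophosphates. Type I interferon acts through its receptor and the kinases JAK1 and TYK2 bound to it, and the transcription factors activated there bind interferon-stimulated response elements (ISREs).

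The promoter sequences are shown because the 4 genes rose together under IFN while their annotated starts differed in motif content. RSAD2 (ENSG00000134321.12) lies on chromosome 2 at chr2:6865806-6898239 on the plus strand, and CMPK2 (ENSG00000134326.11) at chr2:6840570-6866635 on the minus strand, in GRCh38 with GENCODE 29. The 2 gene models overlap by 830 bases on opposite strands. SAMHD1 (ENSG00000101347.9) lies at chr20:36889773-36951901 and NT5C3A (ENSG00000122643.21) at chr7:33014113-33062797, both on the minus strand. RefSeq on GRCh38.p14 gave 8 promoter windows for the 4 genes, each running from 250 bases before to 50 bases after an annotated start. Each window below is written 5′ to 3′ on its gene's strand, with capitals marking the motif matches described after it; the window without capitals had no match.
RSAD2 (plus strand, chr2:6877527-6877826): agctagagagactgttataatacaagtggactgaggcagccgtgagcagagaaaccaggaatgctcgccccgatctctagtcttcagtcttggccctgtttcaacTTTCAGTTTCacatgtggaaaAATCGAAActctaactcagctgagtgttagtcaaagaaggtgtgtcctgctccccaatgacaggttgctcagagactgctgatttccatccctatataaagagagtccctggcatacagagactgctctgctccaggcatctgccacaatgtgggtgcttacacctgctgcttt
RSAD2, upstream start (plus strand, chr2:6865635-6865934): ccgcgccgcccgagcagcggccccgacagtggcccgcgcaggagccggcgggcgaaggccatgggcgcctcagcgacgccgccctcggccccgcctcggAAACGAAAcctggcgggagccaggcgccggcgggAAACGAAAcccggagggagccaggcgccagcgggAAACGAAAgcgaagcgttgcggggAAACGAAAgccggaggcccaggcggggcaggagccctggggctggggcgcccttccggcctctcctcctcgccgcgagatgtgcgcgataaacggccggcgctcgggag
CMPK2 (minus strand, chr2:6865770-6866069): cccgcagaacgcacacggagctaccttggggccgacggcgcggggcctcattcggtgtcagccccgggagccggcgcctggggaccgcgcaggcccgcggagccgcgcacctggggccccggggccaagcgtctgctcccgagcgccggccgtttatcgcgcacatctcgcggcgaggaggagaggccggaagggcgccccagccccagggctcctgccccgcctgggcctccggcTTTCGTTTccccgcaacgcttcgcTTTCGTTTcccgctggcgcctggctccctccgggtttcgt
NT5C3A (minus strand, chr7:33040857-33041156): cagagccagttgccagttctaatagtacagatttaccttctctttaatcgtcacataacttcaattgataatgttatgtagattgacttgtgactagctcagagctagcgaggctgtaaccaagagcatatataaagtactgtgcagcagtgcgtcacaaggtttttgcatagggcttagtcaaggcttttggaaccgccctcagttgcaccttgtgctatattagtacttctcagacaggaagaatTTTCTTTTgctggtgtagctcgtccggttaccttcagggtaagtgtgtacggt
SAMHD1 (minus strand, chr20:36951659-36951958): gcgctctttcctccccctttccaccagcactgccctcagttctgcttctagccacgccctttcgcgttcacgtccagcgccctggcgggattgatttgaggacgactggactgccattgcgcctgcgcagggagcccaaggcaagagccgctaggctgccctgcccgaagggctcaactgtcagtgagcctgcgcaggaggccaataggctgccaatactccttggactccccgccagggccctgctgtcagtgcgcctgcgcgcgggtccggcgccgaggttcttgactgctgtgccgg

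Both strands of each window were searched for an ISRE core (GAAANNGAAA), a shorter half-core (AANNGAAA, of which every ISRE core holds one) and a core of the interferon gamma-activated site (TTCNNNGAA). Among 35116 RefSeq promoter windows, 3.57% held the ISRE core, 22.8% the half-core and 7.66% the gamma-activated core. The ISRE core was found in 1 of the 8 windows, that of RSAD2 at chr2:6877527-6877826, as TTTCAGTTTC from position -145 to -136 relative to the start. The same window also held the half-core AATCGAAA from -124 to -117. The upstream RSAD2 window held AAACGAAA 4 times, between -151 and -52. The CMPK2 window at chr2:6865770-6866069 shared 165 bases with it, its start lay 66 bases away on the opposite strand, and its half-core matches at -14 to -7 and at 11 to 18 were the same genomic bases as 2 of the 4. NT5C3A had 1 half-core, TTTCTTTT, across its start at chr7:33040857-33041156. The SAMHD1 window, the other NT5C3A window and the other 2 CMPK2 windows held none of the 3 motifs, and no window held the gamma-activated core. The motifs were picked after the sequences had been seen, a match is a description of letters, and no binding was measured.

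All 24 libraries had the profile of an epithelial line: KRT8 and KRT18 lay above 1780 TPM in each, AKR1B10, high in A549, above 1890 TPM, and EPCAM between 1.92 and 5.48 TPM. The blood markers PTPRC and CD3E, the fibroblast marker COL3A1 and the endothelial marker VWF had at most 0.142 TPM, whereas CD14 (1.81 to 5.26 TPM) and COL1A1 (5.37 to 19.3 TPM) were present in all 24. BOP1 group means were 11.1 to 18.6 TPM with siBOP1 and 46.0 to 66.4 TPM with siFLuc. Per library, 13844 to 14509 genes reached 1 TPM; sequencing depth is unknown, so no counting interval is given. In the file, the third library of each group carries the number 4, where the labels number replicates up to 3; these 8 are called the libraries numbered 4, and values below are given in the order of the numbers 1, 2 and 4. In such bulk RNA, fewer cells expressing a gene and less RNA per cell cannot be told apart, and the labels do not say whether the libraries of a group came from separate cultures, so p-values measure the spread between these libraries, which may be technical.

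RSAD2 was close to 0 without IFN and reached 37.4 to 76.4 TPM with it. With siFLuc at 8 h, mock libraries held 0, 0.164 and 0.025 TPM and IFN libraries 76.4, 68.6 and 49.3 TPM. At 12 h the mock libraries held 0.131, 0.121 and 0.022 TPM and the IFN libraries 55.1, 53.1 and 37.4 TPM. With siBOP1, mock libraries held 0.043, 0.062 and 0.09 TPM at 8 h and 0.059, 0.02 and 0.088 TPM at 12 h. The siBOP1 libraries under IFN held 64.9, 72.2 and 49.7 TPM at 8 h and 45.1, 50.3 and 38.7 TPM at 12 h. Every IFN library lay above every mock library, and the library numbered 4 was the lowest in each of the 4 IFN groups. Group means under IFN were 64.8 ± 14 (siFLuc, 8 h), 48.6 ± 9.69 (siFLuc, 12 h), 62.3 ± 11.5 (siBOP1, 8 h) and 44.7 ± 5.83 TPM (siBOP1, 12 h; SD, n = 3 each). By group mean, RSAD2 thus went from below the genes at 1 TPM to between rank 2158 and rank 3155 of all genes.

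CMPK2, the kinase beside it, showed the same pattern at a higher level. The siFLuc mock libraries held 0.137, 0.32 and 0.237 TPM at 8 h and 0.311, 0.446 and 0 TPM at 12 h, and the siFLuc IFN libraries held 150.1, 134 and 128 TPM at 8 h and 127, 114 and 121 TPM at 12 h. The siBOP1 mock libraries held 0.338, 0.846 and 0.12 TPM at 8 h and 0.309, 0.332 and 0.135 TPM at 12 h. With siBOP1 and IFN the values were 152, 153 and 141 TPM at 8 h and 102, 115 and 145 TPM at 12 h. IFN and mock libraries did not overlap, and here the library numbered 4 was lowest in 2 of the 4 IFN groups and highest in 1. IFN group means were 137 ± 11.6 (siFLuc, 8 h), 121 ± 6.32 (siFLuc, 12 h), 149 ± 6.73 (siBOP1, 8 h) and 121 ± 21.7 TPM (siBOP1, 12 h; SD, n = 3 each). Rank 934 to 1157 of all genes by group mean belonged to CMPK2 under IFN.

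SAMHD1, the triphosphate hydrolase, was already expressed in mock cells. With siFLuc the mock libraries held 10.3, 10.8 and 11.0 TPM at 8 h and 11.1, 11.1 and 9.71 TPM at 12 h. With siBOP1 they held 13.0, 12.5 and 11.2 TPM at 8 h and 11.6, 14.4 and 11.3 TPM at 12 h. Under IFN the siFLuc libraries held 227, 223 and 178 TPM at 8 h, then 222, 225 and 157 TPM at 12 h, and the siBOP1 libraries 237, 234 and 197 TPM at 8 h and 199, 223 and 179 TPM at 12 h. The groups did not overlap between treatments, and the library numbered 4 was again the lowest of each IFN group. The ratio of group means, IFN over mock, was 19.6 and 19.0 with siFLuc and 18.2 and 16.1 with siBOP1, at 8 h and 12 h.

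NT5C3A, the pyrimidine nucleotidase, had the highest level of the 4 and the smallest relative rise. With siFLuc the mock libraries held 28.6, 34.7 and 40.3 TPM at 8 h and 42.2, 32.0 and 50.9 TPM at 12 h. The siBOP1 mock libraries held 30.4, 35.5 and 37.9 TPM at 8 h and 36.4, 36.0 and 46.3 TPM at 12 h. Under IFN the siFLuc libraries held 494, 512 and 472 TPM at 8 h and 528, 513 and 450.1 TPM at 12 h, against 510.1, 491 and 515 TPM at 8 h and 507, 485 and 491 TPM at 12 h in the siBOP1 libraries. No mock library came near the IFN range, and the library numbered 4 was the highest of each mock group. The ratio of group means was 14.3 and 11.9 with siFLuc and 14.6 and 12.5 with siBOP1, at 8 h and 12 h. With IFN it stood between rank 269 and rank 279 of all genes by group mean. TPM divides by transcript length, so levels can be set side by side: the order NT5C3A, SAMHD1, CMPK2, RSAD2 held in 12 of 12 IFN libraries and 11 of 12 mock libraries.

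**Figure D1:**
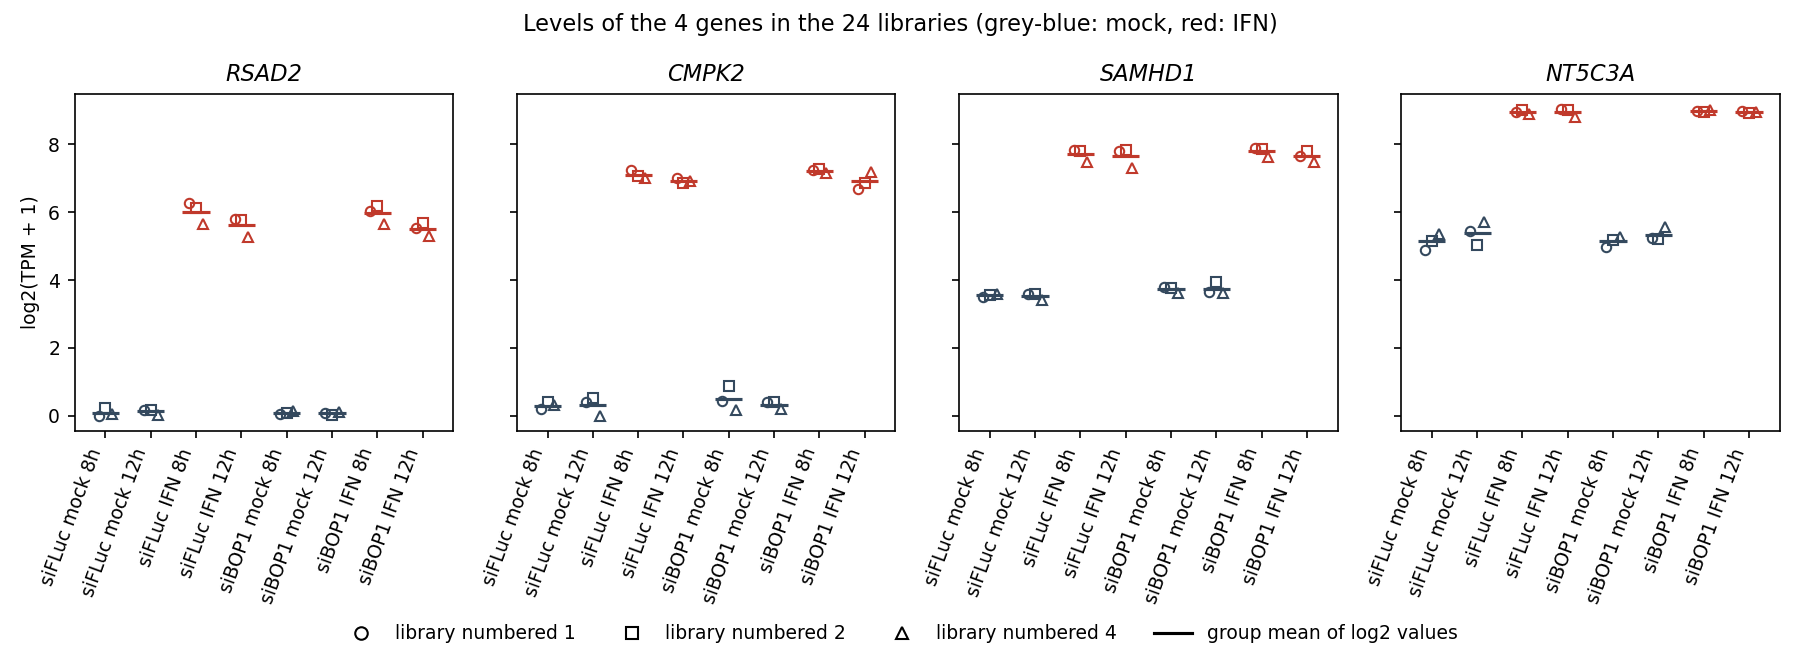
Level of each gene in the 24 libraries as log2(TPM + 1) (y axis) by group (x axis); symbols mark the library number, horizontal lines the group mean of the log2 values. RSAD2 and CMPK2 start near 0 in mock cells, SAMHD1 and NT5C3A start from 9.71 and 28.6 TPM upward, and in all 4 genes the IFN libraries lie above the mock libraries.

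The IFN effect was tested as a difference of log2(TPM + 1), a scale that understates the rise of genes near 0, with limma over 16062 genes and Benjamini-Hochberg adjustment at 0.05. All 4 genes rose in all 4 comparisons. The share of all tested genes that was higher was 5.77% with siFLuc at 8 h, 7.06% with siFLuc at 12 h, 5.99% with siBOP1 at 8 h and 7.17% with siBOP1 at 12 h. RSAD2 and CMPK2 passed the filter of 1 TPM in 3 libraries only through IFN libraries (0 of 12 mock and 12 of 12 IFN libraries reached 1 TPM), so they had to differ and their calls add nothing to the values above. SAMHD1 and NT5C3A reached 1 TPM in all 24.

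For CMPK2 the log2 difference was 6.81, 6.62, 6.74 and 6.58 (siFLuc 8 h and 12 h, siBOP1 8 h and 12 h; SE 0.165), which ranked it 9, 13, 12 and 14 among all genes from the largest rise down. RSAD2 differed by 5.93, 5.49, 5.88 and 5.43 (SE 0.171) in the same order, at ranks 19, 22, 20 and 26. SAMHD1 followed with 4.16, 4.11, 4.08 and 3.90 (SE 0.135) and ranks 59, 51, 60 and 64. NT5C3A had 3.81, 3.56, 3.84 and 3.62 (SE 0.138) and ranks 73, 80, 74 and 82. The largest limma adjusted p among these 16 values was 1.71e-14. The order of RSAD2 and CMPK2 depended on the constant added before the logarithm: with 0.1 in place of 1, CMPK2 differed by 8.37 to 8.74 and RSAD2 by 8.03 to 8.74.

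**Figure D2:**
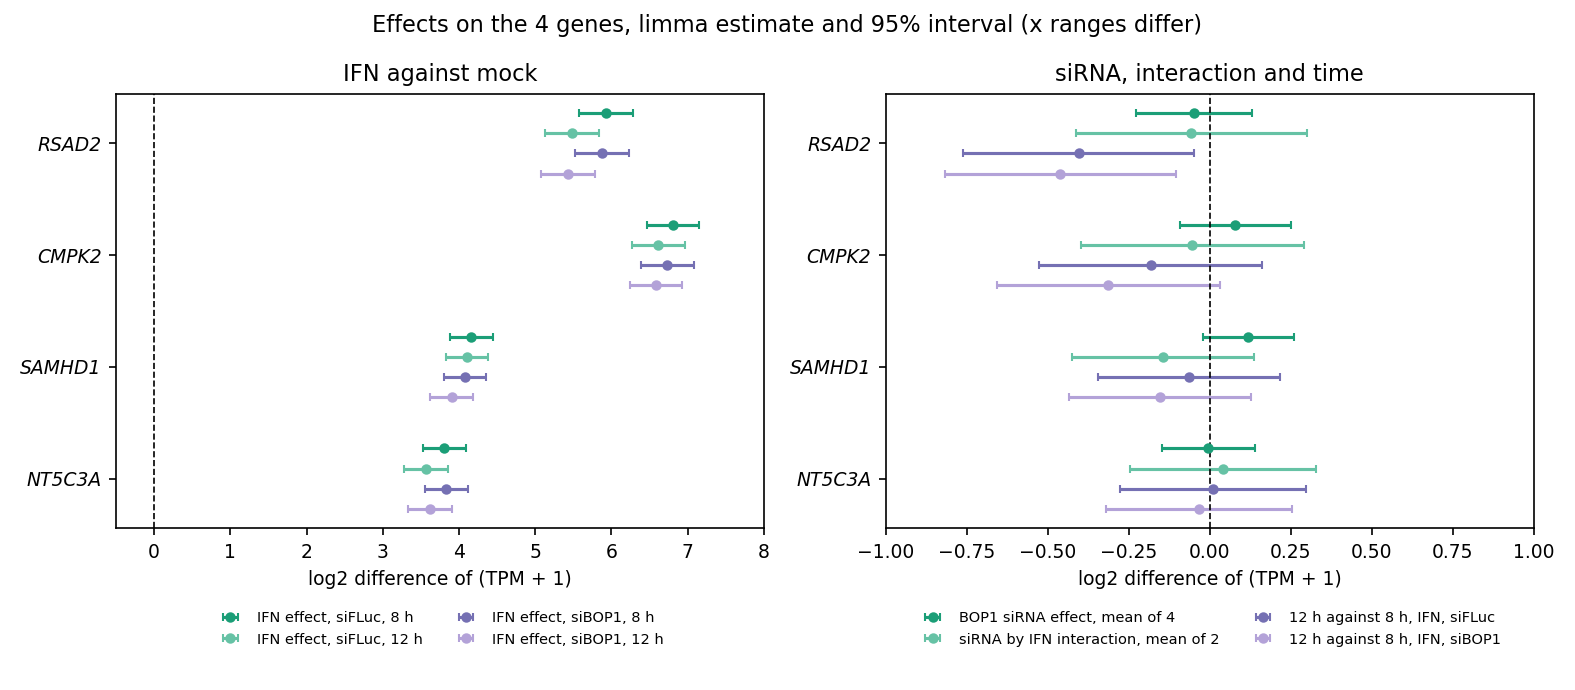
Left, IFN minus mock difference of log2(TPM + 1) for each gene with its 95% interval; right, the same scale for the BOP1 siRNA effect (mean of 4 comparisons), its interaction with IFN (mean of 2 times) and the change from 8 h to 12 h under IFN. The IFN effects span 3.56 to 6.81, the siRNA and interaction intervals all include 0, and the 2 time intervals of RSAD2 lie below 0.

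No difference of the 4 transcripts between siBOP1 and siFLuc passed the test. Averaged over both treatments and times, siBOP1 minus siFLuc was -0.05 for RSAD2 (95% interval -0.23 to 0.13), 0.08 for CMPK2 (-0.09 to 0.25), 0.12 for SAMHD1 (-0.02 to 0.26) and -0.004 for NT5C3A (-0.15 to 0.14) on the log2 scale. None passed (lowest limma adjusted p = 0.257, for SAMHD1), where 16.9% of all genes passed in this averaged comparison. In the single comparisons 0 of 4 genes passed each time, where limma called 2.16% (8 h) and 1.6% (12 h) of all genes in mock cells and 2% (8 h) and 0.66% (12 h) under IFN; none of the 16 unadjusted p-values was under 0.05. Their 16 intervals lay between -0.46 and 0.54, so larger shifts of log2(TPM + 1) in either direction fell outside the intervals. Near 0 TPM this scale compresses relative changes. CMPK2 in mock cells at 8 h had means of 0.231 TPM (siFLuc) and 0.435 TPM (siBOP1), a difference of only 0.19. Intervals that use mock values of RSAD2 or CMPK2, here and below, thus do not bound relative shifts. SAMHD1 in mock cells was separated by siRNA without overlap: its siBOP1 libraries (11.2 to 13.0 TPM at 8 h, 11.3 to 14.4 TPM at 12 h) all lay above the siFLuc libraries of the same time (10.3 to 11.0 TPM and 9.71 to 11.1 TPM), with differences of 0.18 and 0.21 on the log2 scale (limma adjusted p 0.707 and 0.579). Under IFN its siBOP1 and siFLuc libraries overlapped at both times. How many of all genes were separated by siRNA in this way was not counted, so the separation is only a description of these libraries.

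The size of the IFN response was likewise not distinguishable between siRNAs. The difference of IFN effects, siBOP1 minus siFLuc, averaged over both times, was -0.06 for RSAD2 (95% interval -0.41 to 0.30), -0.05 for CMPK2 (-0.40 to 0.29), -0.14 for SAMHD1 (-0.42 to 0.14) and 0.04 for NT5C3A (-0.25 to 0.33). The limma adjusted p was 1 for each gene in each of the 3 interaction comparisons, and 0% of all genes passed at 8 h, 0% at 12 h and 0% on average; at an unadjusted limma p under 0.05 there were 353, 259 and 396 genes, none of them among the 4.

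From 8 h to 12 h under IFN, RSAD2 was the one member with intervals below 0 with both siRNAs. Its change was -0.41 with siFLuc (95% interval -0.76 to -0.05, unadjusted p = 0.028) and -0.46 with siBOP1 (-0.82 to -0.10, unadjusted p = 0.0139), but limma adjusted p was 0.199 and 0.151. The 8 h and 12 h libraries overlapped with both siRNAs, since the 8 h libraries numbered 4 (49.3 and 49.7 TPM) lay within the range of the 12 h values. With the library number as a block within each time, limma adjusted p was 0.0537 with siFLuc and 0.0354 with siBOP1. That block takes the spread between library numbers out of the error but matches no 8 h library with a 12 h library. Both p-values thus leave out spread that a comparison of times holds, and cannot decide it. With only the libraries numbered 1 and 2, the siBOP1 change passed (-0.51, limma adjusted p = 0.0308). Other settings gave higher p-values: the siFLuc change was -0.23 (limma adjusted p = 0.576) without the 12 h library numbered 4, and a pseudocount of 0.1 gave limma adjusted p of 0.497 with siFLuc and 0.472 with siBOP1. CMPK2 changed by -0.18 and -0.31, SAMHD1 by -0.06 and -0.15 and NT5C3A by 0.01 and -0.03, with all 6 intervals including 0. Thus 0 of 4 genes passed in either comparison, where 3.53% (siFLuc) and 2.96% (siBOP1) of all genes did, and the median of all genes was 0.09 in each.

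In mock cells 0 of 4 genes passed between 8 h and 12 h, where 0.131% (siFLuc) and 0.23% (siBOP1) of all genes did, the lowest unadjusted limma p was 0.078 and the 8 intervals lay between -0.51 and 0.54. The change of the IFN effect with time passed for none of them with either siRNA (all 8 limma adjusted p = 1), where 0.00623% (siFLuc) and 0% (siBOP1) of all genes passed and 575 and 603 had an unadjusted p under 0.05. For RSAD2 that change was -0.44 with siFLuc and -0.45 with siBOP1, with intervals that include 0.

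Viperin and CMPK2 transcripts were compared within each library as a ratio, because the 2 genes are neighbours and CMPK2 is proposed to help supply the substrate of viperin. In the 12 IFN libraries RSAD2 was always below CMPK2. With siFLuc the ratio of RSAD2 to CMPK2 was 0.509, 0.513 and 0.386 in the 8 h libraries and 0.435, 0.465 and 0.310 in the 12 h libraries. With siBOP1 it was 0.428, 0.471 and 0.352 in the 8 h libraries and 0.441, 0.437 and 0.267 in the 12 h libraries. The library numbered 4 had the lowest ratio of every group. At 8 h the mean was 0.443 ± 0.066 and at 12 h 0.392 ± 0.082 (SD, n = 6 each), a log2 difference of -0.19 that a two-sided exact permutation test within siRNAs did not separate (p = 0.285, 400 arrangements, smallest possible p 0.005). This test did not use the library number, so the low ratios of the libraries numbered 4 are part of its spread. No paired test was run for time. With siBOP1 the mean ratio was 0.399 ± 0.076 and with siFLuc 0.436 ± 0.078 (n = 6 each, log2 difference -0.13, exact permutation p = 0.435, within times). Between libraries of the same number and time, the ratio was lower with siBOP1 in 5 of 6 pairs (log2 differences -0.25 to 0.02), and an exact permutation of signs within pairs, added after the values were seen, gave p = 0.0625 (64 arrangements, smallest possible p 0.0312). Whether the reads were assigned by strand is not stated, so reads from the 830 shared bases cannot be told apart between the 2 genes.

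**Figure D3:**
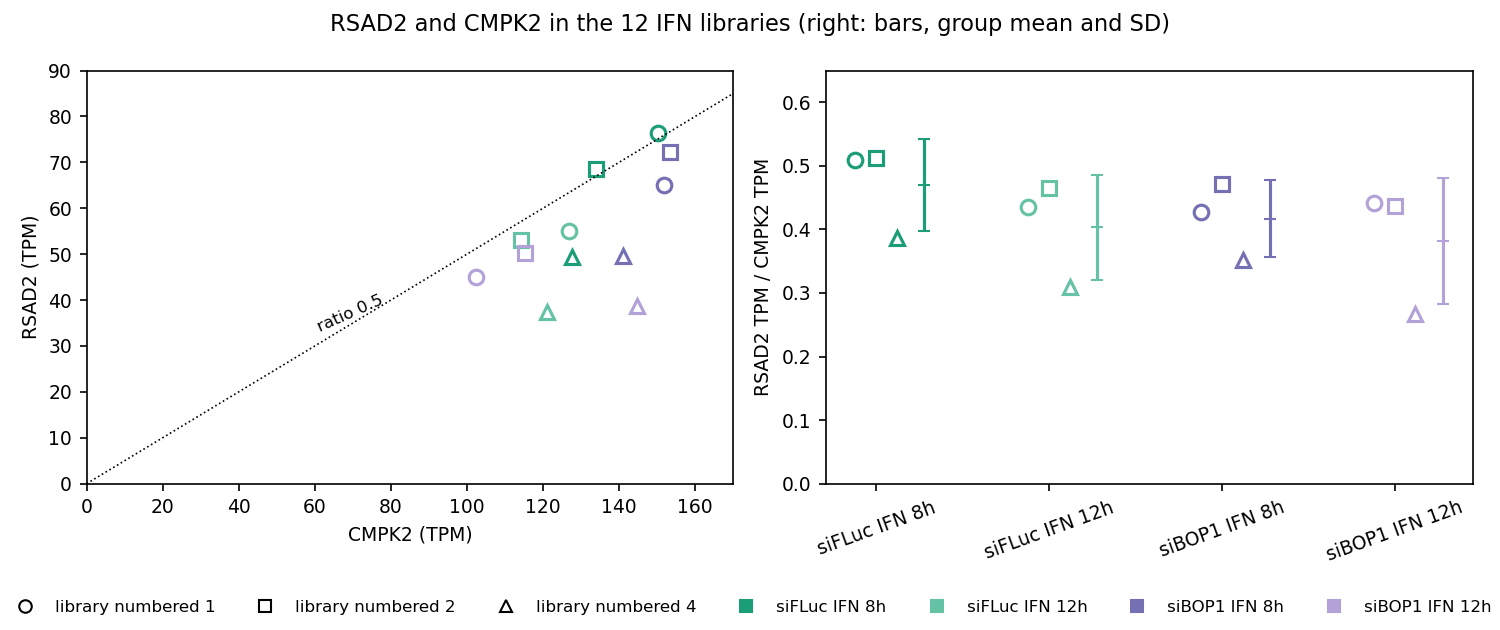
Left, RSAD2 against CMPK2 (TPM) in the 12 IFN libraries with a dotted line at a ratio of 0.5; right, the ratio in each library with group mean and SD. The 4 libraries numbered 4 have the lowest ratios of their groups, 0.267 to 0.386, and the 4 groups overlap.

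Of the genes around the 4 loci, a noncoding RNA next to CMPK2 was near 0 without IFN and present with it. NRIR, a long noncoding RNA reported as a regulator of interferon-stimulated genes, lies on the same strand as CMPK2 and begins 105 bases beyond its 3′ end in GENCODE 29. It was at most 0.099 TPM in mock libraries, so like RSAD2 and CMPK2 it passed the filter through IFN libraries alone and had to differ. Under IFN its group means were 1.04 ± 0.411 (siFLuc, 8 h), 0.828 ± 0.318 (siFLuc, 12 h), 1.39 ± 0.67 (siBOP1, 8 h) and 2.15 ± 0.373 TPM (siBOP1, 12 h; SD, n = 3 each). The IFN minus mock differences of NRIR, given as a description, were 1.01, 0.81, 1.20 and 1.65 on the log2 scale (SE 0.198). At 12 h under IFN its siBOP1 libraries (1.73 to 2.42 TPM) lay above its siFLuc libraries (0.626 to 1.20 TPM), a difference of 0.79 with limma adjusted p = 0.0763. The share of all genes separated in this way was not counted. Reads that run past the end of CMPK2 would fall in NRIR on the same strand; their part in its values was not tested.

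The nearest 3 protein-coding genes on each side of each member gave 18 other genes, of which 14 were expressed enough to test. Their 56 IFN differences ran from -0.86 to 0.55, and 12.5% passed: 3 higher and 4 lower, where the shares of all genes were 5.77% to 7.17% higher and 5.07% to 9.11% lower. RNF144A, a ubiquitin ligase gene 19.2 kb beyond RSAD2, passed once (0.55, siFLuc at 12 h). KBTBD2, 121.9 kb from NT5C3A, passed with siFLuc at both times (0.52 and 0.53). The 4 lower calls came from SOGA1, BBS9 and KIDINS220. SOGA1, the tested gene nearest to SAMHD1 at 26.2 kb, passed with siBOP1 at 8 h (-0.86). BBS9, 66.5 kb from NT5C3A, passed with siBOP1 at 12 h (-0.75). KIDINS220, 1822.8 kb from RSAD2, passed with siFLuc at 12 h (-0.54) and with siBOP1 at 8 h (-0.48). FKBP9, the gene closest to NT5C3A at 7.2 kb, had differences between -0.09 and 0.12, and RBL1, 44.6 kb from SAMHD1, between -0.40 and -0.20; neither passed. TLDC2, whose RefSeq model overlaps SAMHD1, had at most 0.241 TPM.

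**Figure D4:**
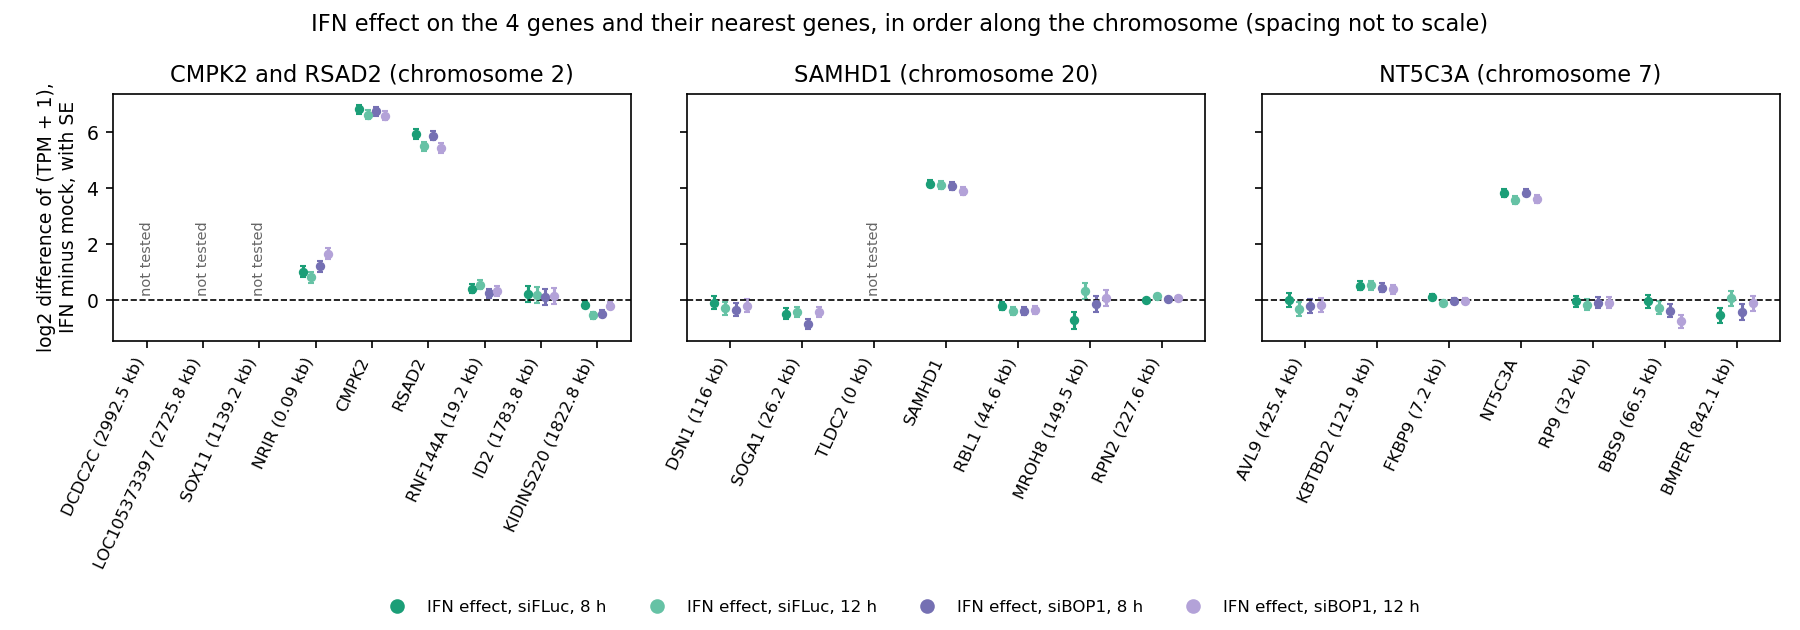
IFN minus mock difference of log2(TPM + 1) with SE (y axis) for the 4 genes and their nearest genes in order along each chromosome (x axis, with the distance to the member in kb; spacing not to scale). The members lie at 3.56 to 6.81, NRIR at 0.81 to 1.65 and the other neighbours tested at -0.86 to 0.55.

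By Pearson correlation of log2(TPM + 1) over the 24 libraries, which share the treatment contrast and the same depth and composition within a library, RSAD2 was most like LGALS17A (r = 0.9981), SAMD9L (0.9979) and IFI44L (0.9978). LGALS17A is the GENCODE 29 name of a row that the table of gene symbols lists by its ID alone. CMPK2 was most like OAS2 (0.9986), XAF1 (0.9976) and IFIH1 (0.9974). SAMHD1 was most like LGALS17A (0.9978), RSAD2 (0.9977) and MX2 (0.9975), and NT5C3A like HERC5 (0.9978), TAP1 (0.9962) and OAS3 (0.9953). Between 264 and 284 genes had r above 0.95 with each member, so these places separate genes by small margins.

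The close relatives CMPK1 and NT5C3B did not rise. CMPK1, the cytosolic UMP and CMP kinase, had group means of 93.9 ± 13.9 and 95.5 ± 5.3 TPM in siFLuc mock cells and 84.6 ± 5.01 and 87.8 ± 3.13 TPM under IFN, at 8 h and 12 h (SD, n = 3 each). Its log2 differences were -0.14 and -0.12 with siFLuc and -0.30 and -0.32 with siBOP1, and the last 2 passed (limma adjusted p 0.0313 and 0.0201). NT5C3B, which removes phosphate from methylated GMP, differed by -0.16 and -0.38 with siFLuc and by -0.25 and -0.32 with siBOP1, and passed at 12 h with both (limma adjusted p 0.017 and 0.044). The calls depended on single libraries: leaving out 1 library ended a CMPK1 call in 4 of 6 cases at each time, and an NT5C3B call in 3 of 6 (siFLuc) and 5 of 6 (siBOP1). In the other direction, NT5C3B with siBOP1 at 8 h passed with the library number as a block (limma adjusted p = 0.0181), with that block within each time (0.00937) and with quantile normalization (0.0341). Median-of-ratios rescaling gave CMPK1 -0.15 in siBOP1 cells at 8 h, where the median of all genes was -0.14 before it. Under IFN, CMPK2 thus stood at 1.37 to 1.83 times the level of CMPK1 by group mean, where it had been under 0.01 of it in mock cells.

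Around the members, 4 lists described the supply and removal of nucleotides, and 112 of their 121 genes were tested. Together they held 7, 8, 8 and 8 genes that were higher and 4, 18, 15 and 21 that were lower under IFN (siFLuc 8 h and 12 h, siBOP1 8 h and 12 h), where 5.77%, 7.06%, 5.99% and 7.17% of all genes were higher and 5.07%, 6.43%, 9.11% and 7.58% lower. Over the 4 lists together, the counts of higher genes were thus near the background, but the lists differed, as given below. The counts of lower genes changed with the treatment of the library number, and so did the share of all genes that was lower. With the number as a block they were 13, 33, 27 and 39 (9, 12, 8 and 10 higher), where 6.73%, 8.74%, 7.18% and 8.9% of all genes were then higher and 8.55%, 11.5%, 14.5% and 12.8% lower. Over all genes the median difference was -0.09, -0.06, -0.14 and -0.08. TPM columns have a fixed sum, so a rise of some genes lowers the values of others. Its part in the counts of lower genes was not tested.

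Synthesis and salvage enzymes, which build nucleotides from small precursors or recycle bases and nucleosides, held 0, 1, 1 and 2 higher and 2, 8, 8 and 7 lower of 50 genes, with medians of -0.12, -0.23, -0.24 and -0.25. In either direction 4%, 18%, 18% and 18% of this list passed, where 5.77% to 7.17% of all genes were higher and 5.07% to 9.11% lower. IMPDH1, which catalyses the limiting step of guanine nucleotide synthesis, was lower in all 4: with siFLuc at 8 h it fell from 51.2 ± 4.0 to 36.1 ± 5.06 TPM, and with siBOP1 at 12 h from 56.7 ± 1.31 to 33.7 ± 1.69 TPM (SD, n = 3 each). Its log2 differences were -0.50, -0.66, -0.62 and -0.73 (SE 0.091). AK3, a mitochondrial GTP:AMP phosphotransferase, also fell in all 4, with log2 differences of -0.69, -0.50, -0.65 and -0.53 (SE 0.094), from 57.3 ± 6.79 to 35.2 ± 3.9 TPM in the first. No gene of this list rose in all 4.

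Breakdown and sanitation enzymes, which remove phosphates and degrade bases or damaged nucleotides, held 5 higher genes in each comparison and 1, 6, 3 and 9 lower of 32 tested, with medians of -0.20, -0.21, -0.20 and -0.25. The same 5 rose each time. In either direction 18.8%, 34.4%, 25% and 43.8% of this list passed, where 5.77% to 7.17% of all genes were higher and 5.07% to 9.11% lower. TYMP, thymidine phosphorylase, went from 47.1 ± 5.14 to 282 ± 35.5 TPM with siFLuc at 8 h and from 62.5 ± 0.948 to 481 ± 47.6 TPM with siBOP1 at 12 h, and its log2 differences were 2.56, 3.04, 2.57 and 2.92 (SE 0.152). NT5E, the surface nucleotidase CD73 that makes adenosine from AMP, rose by 1.13, 1.89, 1.21 and 1.60 (SE 0.201). DPYD, which starts the degradation of uracil and thymine, rose by 1.09, 0.94, 1.19 and 0.81 (SE 0.160), reaching 9.34 ± 1.9 to 11.4 ± 1.4 TPM. NT5C2, a cytosolic nucleotidase for IMP and GMP, rose by 0.85, 0.79, 0.80 and 0.89 (SE 0.190). XDH, xanthine dehydrogenase, rose by 0.75, 0.91, 0.73 and 1.16 (SE 0.192) from 2.18 ± 0.383 to 4.43 ± 1.31 TPM in the first comparison.

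The XDH call at 8 h rested on single libraries: with siFLuc it ended without the IFN library numbered 1 (0.57, limma adjusted p = 0.0931) or the mock library numbered 4 (0.66, 0.0662), and with siBOP1 without the mock library numbered 4 (0.57, 0.0867). In the other direction, NT5DC2, a member of the 5′-nucleotidase domain family, fell in all 4, with log2 differences of -1.83, -1.67, -1.97 and -2.25 (SE 0.164), from 47.4 ± 6.34 to 12.6 ± 1.37 TPM with siFLuc at 8 h. Other nucleotidases of this list were lower in 2 of the 4 comparisons, both at 12 h: NT5C (-0.33 and -0.30) and NT5M (-0.62 and -0.99), named after their values were seen, and NT5C3B, given above. With only the groups compared in the fit, calls with siFLuc ended for XDH at 8 h and 12 h (limma adjusted p 0.0891 and 0.0535), NT5C2 at 12 h (0.146) and, among the synthesis genes, IMPDH1 at 8 h (0.0581).

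Genes for the maturation and cofactor supply of viperin, which needs an iron-sulfur cluster and S-adenosylmethionine, held 1, 1, 1 and 0 higher and 1, 2, 2 and 3 lower of 19, with medians of -0.11, -0.13, -0.12 and -0.10, and none changed in all 4. At most 1 higher and 3 lower of 19 compares with 5.77% to 7.17% of all genes higher and 5.07% to 9.11% lower. Regulators of SAMHD1, which is held in check by phosphorylation through cyclin-dependent kinases, held 1 higher gene in each comparison and 0, 2, 2 and 2 lower of 11 tested, with medians of -0.21, -0.41, -0.34 and -0.40. In either direction 9.09%, 27.3%, 27.3% and 27.3% of this list passed. With 11 genes, 1 higher call is near the background share, whereas 2 lower calls are above the 5.07% to 9.11% of all genes. The lower genes, named after their values were seen, were CDK4 (-0.46 with siFLuc at 12 h, -0.54 and -0.46 with siBOP1 at 8 h and 12 h), SKP2 (-0.41 with siFLuc and -0.40 with siBOP1, at 12 h) and CCNE1 (-0.69 with siBOP1 at 8 h). The gene that rose was PPP2R2A, the regulatory subunit of the phosphatase that removes this phosphate, by 0.96, 0.55, 0.81 and 0.61 (SE 0.149). Its mean was 44.1 ± 3.1 TPM in mock cells and 87.0 ± 8.28 TPM under IFN with siFLuc at 8 h (SD, n = 3 each). At 12 h with siFLuc the call ended without the IFN library numbered 4 (0.47, limma adjusted p = 0.063), without the mock library numbered 1 (0.34, 0.121), and with only the groups compared in the fit (0.55, 0.223).

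**Figure D5:**
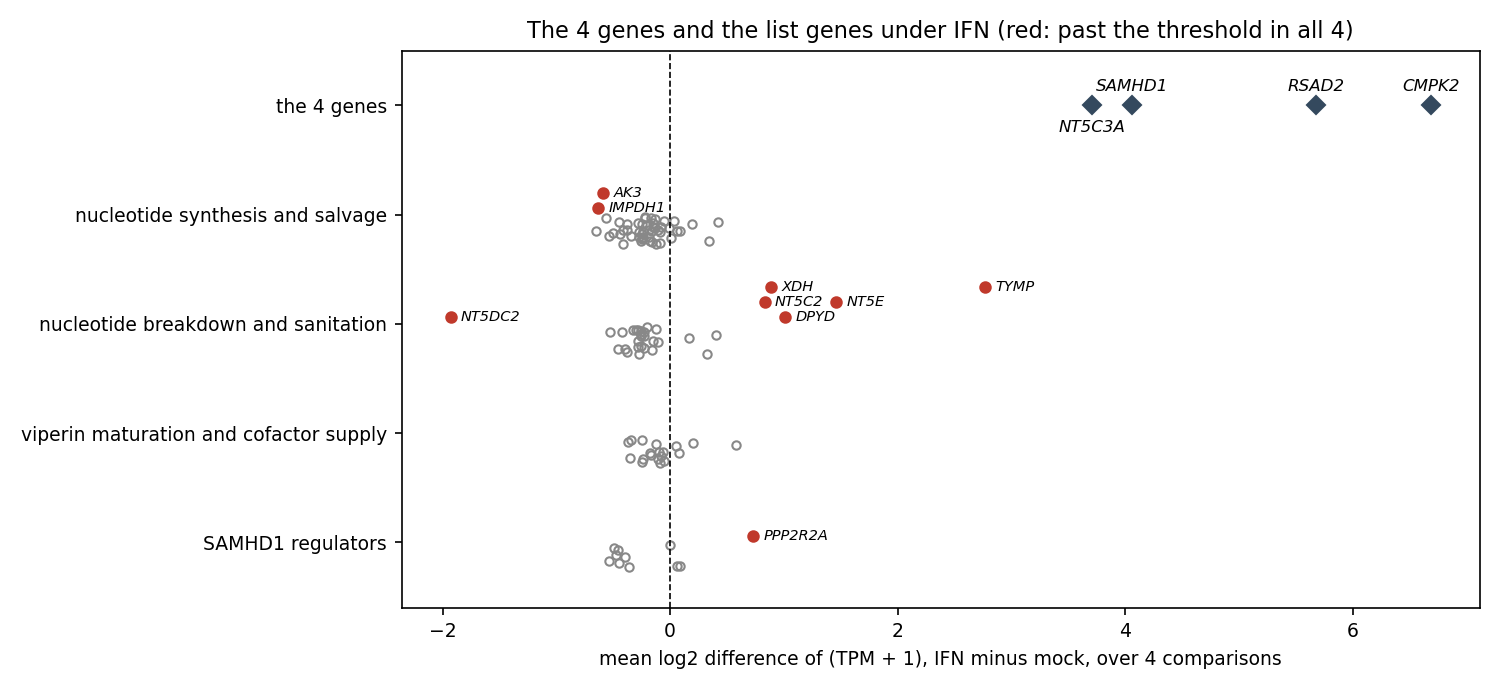
Mean IFN minus mock difference of log2(TPM + 1) over the 4 comparisons (x axis) for the 4 genes (diamonds) and for the tested genes of the 4 lists (circles; red and named where the gene passed in all 4; vertical scatter within a row has no meaning). The 4 genes lie above TYMP, the highest list gene at 2.77, and most list genes lie below 0.

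With siBOP1, the list genes moved little in single comparisons. ENTPD6, a nucleoside diphosphate hydrolase, was the one list gene that passed in 2 of the 4, higher in mock cells at 8 h (88.5 ± 8.19 to 119 ± 16.2 TPM, 0.42, limma adjusted p = 0.0366) and at 12 h (90.4 ± 13.7 to 120.5 ± 6.83 TPM, 0.42, limma adjusted p = 0.0429). Leaving out single libraries ended its call in 4 of 6 cases at 8 h and 5 of 6 at 12 h. In the average of the 4 comparisons, 5 synthesis and salvage genes were higher and 9 lower of 50 (28%, against 16.9% of all genes), and 5 breakdown genes were higher and 1 lower of 32 (18.8%). Of the viperin maturation and cofactor genes, 7 of 19 passed (36.8%), 5 higher and 2 lower, with a list median of -0.02; the furthest were MAT2B, a subunit of methionine adenosyltransferase (0.46, limma adjusted p = 0.000427), and CIAO2A, of cytosolic iron-sulfur assembly (-0.36, limma adjusted p = 0.000179), named after their values were seen. None of the 11 SAMHD1 regulators passed (median -0.12).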

How the data were processed

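Polyadenylated RNA was sequenced from 24 A549 libraries prepared with a stranded mRNA kit, per the labels' protocols. The authors deposited 1 table of TPM values (60609 rows, each column summing to 1000000); aligner, quantification tool, genome build and strand setting are not given in the sources used here, and depth is unknown. Column names placed 16 columns with a labelled replicate and 8 columns, numbered 4, with a group only. After a filter (1 TPM or more in 3 or more libraries, 16062 genes), log2(TPM + 1) was fitted in R 4.3.3 by limma 3.58.1: 8 group means over 24 libraries, eBayes with a trend, no block, and Benjamini-Hochberg adjustment over genes within each of 18 comparisons at 0.05. The fit was tested on simulated data. Library numbers paired the libraries within siRNA and IFN comparisons (correlation across genes of same-numbered deviations 0.115 to 0.508). Between times these correlations ran from -0.113 to 0.196, which overlaps the lower part of that range. Ratios were compared by two-sided exact permutation (scipy 1.17.1). Motifs were searched in RefSeq promoters (GRCh38.p14).

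The 4 genes and the lists were chosen with earlier results of these data known. Genes named are the 4 genes, CMPK1, NT5C3B, list genes past the threshold with one sign in all 4 IFN comparisons or in 2 of 4 siRNA comparisons, locus neighbours with NRIR, and the 3 genes most correlated with each of the 4; neighbours with values were picked from these by position or call. Alternatives changed the pseudocount, filter, scaling, trend, groups in the fit and block, or left out libraries.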

Additional observations from a re-analysis of the deposited data

How the results depend on the processing

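All 256 alternative values of the 16 IFN effects on RSAD2, CMPK2, SAMHD1 and NT5C3A kept their direction and passed the threshold (largest limma adjusted p 7.8e-05), also with the replicate block. RSAD2 and CMPK2 entered the main filter only through IFN libraries, so their passing adds nothing here. Only the calls of SAMHD1 and NT5C3A bear on the settings. The values ran from 5.34 to 6.11 for RSAD2, 6.37 to 6.93 for CMPK2, 3.82 to 4.30 for SAMHD1 and 3.39 to 3.99 for NT5C3A, leaving out the pseudocount of 0.1. Effects near 0 changed sign. For NT5C3A from 8 h to 12 h under IFN, quantile normalization gave 0.020 with siBOP1 and -0.004 with siFLuc, and median-of-ratios rescaling gave -0.093 with siFLuc. Its mean interaction was -0.057 with the libraries numbered 1 and 2 and -0.020 with quantile normalization; that of RSAD2 was 0.008 with quantile normalization. Leaving out 1 library in turn gave mean interactions of -0.135 to 0.045 (CMPK2), -0.035 to 0.128 (NT5C3A) and -0.148 to 0.019 (RSAD2), a mean siRNA effect of -0.047 to 0.034 (NT5C3A), and time changes with siFLuc of -0.036 to 0.080 (NT5C3A) and -0.177 to 0.105 (SAMHD1).

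The number of the 4 genes past the threshold changed only for 12 h against 8 h under IFN with siBOP1, from 0 to 1 (RSAD2), with the replicate block within each time and with the libraries numbered 1 and 2. The block within each time leaves the spread between library numbers out of the error of a time comparison, so its pass cannot decide one. For RSAD2 in the same comparison, the replicate block over all libraries gave a limma adjusted p of 0.0522. List genes that were lower under IFN depended most on the processing. In the order 8 h and 12 h with siFLuc, then 8 h and 12 h with siBOP1, the counts of 4, 18, 15 and 21 became 13, 33, 27 and 39 with the replicate block, 23, 42, 37 and 48 with the replicate block within each time, and 16, 35, 31 and 48 with the libraries numbered 1 and 2. Median-of-ratios rescaling gave 6 (siBOP1 8 h) and 12 (siBOP1 12 h), quantile normalization 11 (siFLuc 8 h) and 33 (siBOP1 12 h), a filter at a mean of 5 TPM 7 (siFLuc 8 h), and a fit of only the groups compared 5 (siFLuc 12 h) and 13 (siBOP1 12 h). The share of all genes that was lower moved as well: it was 12.7%, 15.8%, 20.4% and 16.6% with the block within each time, 8.65%, 11.3%, 13.6% and 13.7% with the libraries numbered 1 and 2, 4.52% and 5.4% under the median-of-ratios values given, 5.91% and 10.7% under quantile normalization, 6.62% under the filter, and 1.76% and 4.19% in the fits of only the groups compared. The counts of higher genes at 12 h became 13 with each siRNA with the block within each time and 3 with siFLuc when other groups left the fit. Leaving out libraries gave 9 to 22, 6 to 17 and 7 to 27 lower genes in the last 3 comparisons and 5 to 11 higher genes with siFLuc at 12 h. The cause of these changes was not tested. The averaged siRNA and interaction effects use all 8 groups, so a fit of only the groups compared could not differ. TPM keep no depth, so precision for the values near 0 TPM is unknown.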
